A study of Mus musculus with 3 samples.

Results

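The genes described here are 8 genes of early B lymphocyte development: *Vpreb1*, *Vpreb2*, *Vpreb3*, *Igll1*, *Rag1*, *Rag2*, *Dntt* and *Lef1*. They were taken by their symbols from a table of 26970 genes, and all 8 are in it. The table comes from RNA sequencing of mandibular condyles, the articulating ends of the lower jaw, of 4-month-old mice on a C57BL/6 background. The groups are wild-type mice (WT, *Dspp* +/+), mice with one *Dspp* allele deleted (*Dspp*+/-) and mice with both deleted (*Dspp*-/-), and the knockout is global. The condyles kept their cartilage and subchondral bone together, so marrow in the bone is part of the sample. Each genotype has 1 library. Tissue of 3 animals was pooled for WT and for *Dspp*+/-, and the pooling for *Dspp*-/- is not given in the sources used here.

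A B cell precursor first assembles its immunoglobulin heavy chain by V(D)J recombination. RAG1 and RAG2 together cut the DNA, and the polymerase TdT, which *Dntt* encodes, adds bases without a template at the joints. A finished heavy chain is then tested with a surrogate light chain made of VpreB, from *Vpreb1* or *Vpreb2*, and lambda5, from *Igll1*. With the signalling chains CD79A and CD79B it forms the pre-B cell receptor, whose signal drives a burst of division and then shuts off the surrogate light chain genes. *Vpreb3* encodes a related chain that binds immunoglobulin chains inside the cell. *Lef1* encodes a transcription factor of the Wnt pathway that B cell precursors use, and that cells of other tissues use as well. In adult mice these steps take place in bone marrow.

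*Vpreb1* and *Vpreb2* are shown first because they are near copies, which bears on which of them a read can be assigned to. Of 429 coding bases, 9 differ, and the sequences are 97.9% identical in GENCODE M21 with no gap. The stretch of 150 bases, the read length used, that holds the most differences runs from coding base 238 to 387 and has 6 of them, given in capitals.

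*Vpreb1*: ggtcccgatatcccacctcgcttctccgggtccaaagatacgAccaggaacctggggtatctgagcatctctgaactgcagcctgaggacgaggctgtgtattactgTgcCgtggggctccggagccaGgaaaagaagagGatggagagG

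*Vpreb2*: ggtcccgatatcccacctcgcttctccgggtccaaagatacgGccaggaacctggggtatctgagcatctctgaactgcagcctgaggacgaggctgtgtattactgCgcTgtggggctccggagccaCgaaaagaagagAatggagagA

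Of the 100-base sequences in the transcripts of *Vpreb1*, 7.75% also occur in *Vpreb2*, and 14.7% of those of *Vpreb2* occur in *Vpreb1*. How reads matching both were counted is not given in the sources used here, so the split between the genes is uncertain. *Vpreb3*, *Igll1*, *Rag1* and *Dntt* share no 100-base sequence with another gene of the annotation.

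FPKM, the unit used, is the number of sequenced fragments scaled by gene length and library depth. FPKM times gene length gave whole fragments for all 8 genes in the 3 libraries, within 0.1 fragments. By that step WT held 20241576 fragments, *Dspp*+/- 23613621 and *Dspp*-/- 22253158. Intervals below are 95% Clopper-Pearson intervals of a fold from these fragments, account for the counting of fragments alone, so differences among mice are not in them. With 1 library per genotype no test was possible, and every difference is between single libraries. Both mutant genotypes are set against the same WT library. The labels could not be checked against *Dspp*, which was not analysed here. Genes of bone and marrow differed widely between the libraries. The FPKM of 12 osteoblast genes summed to 16160 in WT, 4475 in *Dspp*+/- and 8940 in *Dspp*-/-, that of 12 chondrocyte genes to 1789, 562 and 849, that of 12 neutrophil genes to 647, 2913 and 3866, and that of 12 erythroid genes to 901, 3666 and 3545. *Xist*, which marks female cells, was at 0.00551 FPKM for WT, 28.5 for *Dspp*+/- and 26.5 for *Dspp*-/-, so the sex of the animals differed with genotype. The part of tissue composition and of sex in the results below was not tested. In pooled tissue, fewer cells of a type and less RNA per cell cannot be told apart.

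The clearest difference among these genes was in the surrogate light chain. *Igll1* (ENSMUSG00000075370), for lambda5, measured 0.502 FPKM for WT, 0.176 for *Dspp*+/- and 2.12 for *Dspp*-/-, on 22, 9 and 102 fragments. The *Dspp*-/- library was highest, and the *Dspp*+/- library was the lowest of the 3. Against WT the fold was 0.351 in *Dspp*+/- (interval 0.142 to 0.792) and 4.22 in *Dspp*-/- (2.64 to 7.02). Between the mutant libraries, *Dspp*-/- was 12.0-fold above *Dspp*+/- (6.09 to 27.1). Of 17772 genes with more than 3 fragments in both mutant libraries, 6 had a fold at least as high, *Igll1* included, which is 0.0338%. The gene lies on chromosome 16 from 16678535 to 16681849 on the minus strand in the authors' table, whose genome build is not the GRCm38 build of GENCODE M21. Its mean of 0.932 FPKM is just under the 1 FPKM used as a filter, so it is not among the called genes below.

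*Vpreb1* (ENSMUSG00000059305), for the partner chain, lies 4418 bases from *Igll1* on the same strand, from 16686267 to 16688707. The WT library gave 1.40 FPKM, *Dspp*+/- 0.565 and *Dspp*-/- 1.46, on 34, 16 and 39 fragments. It was low in *Dspp*+/- and near equal in the other two. The fold against WT was 0.403 in *Dspp*+/- (0.208 to 0.751) and 1.04 in *Dspp*-/- (0.642 to 1.70), and *Dspp*-/- was 2.59-fold above *Dspp*+/- (1.41 to 4.96). So in *Dspp*-/-, *Igll1* was well above WT while its neighbour was not. In FPKM, *Igll1* was 0.359 of *Vpreb1* for WT, 0.312 for *Dspp*+/- and 1.45 for *Dspp*-/-. The exons of *Vpreb1* overlap those of *Top3b*, a DNA topoisomerase gene on the other strand, over 108 bases, which is 9.01% of its exon length. *Top3b* had 3.76, 3.94 and 3.95 FPKM in WT, *Dspp*+/- and *Dspp*-/-, and did not move with *Vpreb1*. *Ppm1f*, 25626 bases from *Vpreb1*, had 11.1, 11.9 and 10.1 FPKM. *Vpreb2* (ENSMUSG00000059280), on the same chromosome from 17798292 to 17799137, had 0 fragments in WT and *Dspp*-/- and 1 in *Dspp*+/-. That is at or under the floor of 3 fragments in all libraries, and no fold is given.

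*Vpreb3* (ENSMUSG00000000903), on chromosome 10 from 75778891 to 75785491, was the most abundant of the 8 genes per length and went the other way in *Dspp*+/-. Its level was 3.57 FPKM for WT, 8.97 for *Dspp*+/- and 10.2 for *Dspp*-/-, on 62, 182 and 195 fragments. Both mutant libraries were above WT, by 2.52-fold (1.88 to 3.41) and 2.86-fold (2.14 to 3.87), and their intervals overlap. Between them the fold was 1.14 (0.924 to 1.40), an interval that includes 1. In FPKM, *Vpreb3* was 7.10 times *Igll1* in WT, 50.9 times in *Dspp*+/- and 4.82 times in *Dspp*-/-. The nearest genes on chromosome 10, *Gm867*, *Gm5134*, *Chchd10* and *Mmp11*, showed no common direction. *Gm867*, the closest at 2385 bases, had 0.362, 1.83 and 1.21 FPKM in WT, *Dspp*+/- and *Dspp*-/-, higher in both mutant libraries as *Vpreb3* was. *Gm5134* was low, with 0.0316, 0.0135 and 0.0287 FPKM. *Chchd10*, a mitochondrial protein gene, had 75.0, 125 and 56.3 FPKM, and *Mmp11*, a matrix metalloproteinase gene, had 4.02, 2.84 and 3.30 FPKM.

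**Figure D1:**
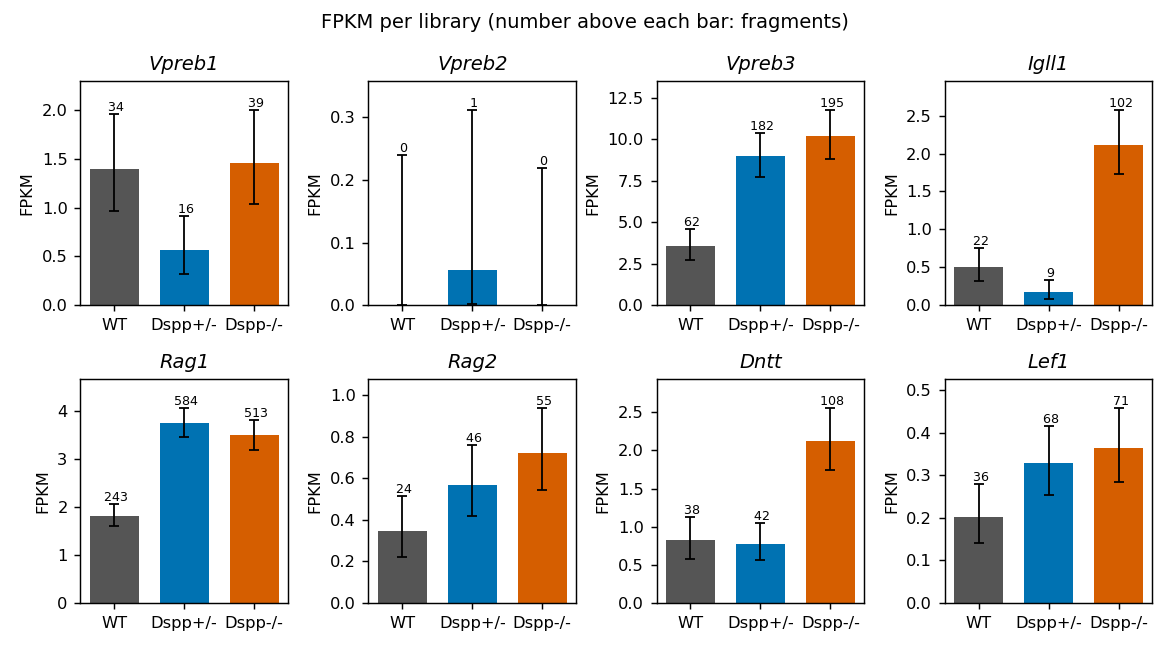
FPKM of the 8 genes in the WT, Dspp+/- and Dspp-/- libraries, 1 library each, on linear axes that differ between panels. Error bars are 95% Poisson intervals of the fragments, and the number of fragments stands above each bar. Igll1 rests on 22, 9 and 102 fragments and Rag1 on 243, 584 and 513, so the panels differ in precision.

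Upstream sequence of the surrogate light chain genes is given for reference, since *Igll1* and *Vpreb1* are neighbours that differed from *Vpreb3*. The sequences are the 250 bases before the gene start in RefSeq on GRCm38.p6, 5′ to 3′ on the strand of the gene. They lie at chr16:16863986-16864235 (minus strand) for *Igll1*, chr16:16869256-16869505 (minus strand) for *Vpreb1* and chr10:75948050-75948299 (plus strand) for *Vpreb3*. Capitals mark the first and second sequences' match to TCCC and GGGA with 3 bases between, and the octamer ATTTGCAT in the third.

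*Igll1*: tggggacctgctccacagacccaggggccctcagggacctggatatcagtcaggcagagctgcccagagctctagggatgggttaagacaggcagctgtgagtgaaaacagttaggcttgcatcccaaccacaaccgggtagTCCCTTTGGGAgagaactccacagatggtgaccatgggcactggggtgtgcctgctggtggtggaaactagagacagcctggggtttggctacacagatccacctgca

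*Vpreb1*: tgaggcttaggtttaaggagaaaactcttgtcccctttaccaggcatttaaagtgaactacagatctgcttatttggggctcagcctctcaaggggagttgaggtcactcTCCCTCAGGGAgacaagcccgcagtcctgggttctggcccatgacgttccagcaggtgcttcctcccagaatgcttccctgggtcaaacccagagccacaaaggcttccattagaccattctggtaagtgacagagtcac

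*Vpreb3*: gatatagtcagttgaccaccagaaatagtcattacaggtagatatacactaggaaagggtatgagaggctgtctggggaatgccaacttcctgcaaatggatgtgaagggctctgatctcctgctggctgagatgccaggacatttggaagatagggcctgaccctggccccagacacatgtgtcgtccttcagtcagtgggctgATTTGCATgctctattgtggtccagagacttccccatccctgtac

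Motifs were searched on both strands in 32851 such windows, and all 8 genes had at least 1 window, 11 in all. The palindrome that the B lineage factor EBF1 binds, TCCC and GGGA with 2 bases between, was in none of them, against 0.779% of all windows. The palindrome with 3 bases between TCCC and GGGA was in the windows of *Igll1* and *Vpreb1* and in 0.673% of all windows. This spacing was searched after the sequences had been read. Its first base is 108 bases before the start of *Igll1* and 140 before that of *Vpreb1*. The octamer was in the window of *Vpreb3* alone among the 8 genes, and in 1.60% of all windows. CAGGTG, an E-box, was in the windows of *Vpreb1*, *Vpreb2*, *Igll1* and *Rag1*, against 17.2% of all. CAGCTG, another E-box, was in those of *Vpreb2*, *Igll1*, *Rag1* and *Lef1*, against 13.0%. CTTTGAT, a motif of TCF and LEF factors, was in none, against 3.21% of all. A match is a description of the sequence and not a bound site.

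Both recombinase genes were higher in the mutant libraries, and to a like degree. *Rag1* (ENSMUSG00000061311), on chromosome 2 from 101468627 to 101479846, stood at 1.82 FPKM for WT, 3.74 for *Dspp*+/- and 3.49 for *Dspp*-/-, on 243, 584 and 513 fragments. The folds against WT were 2.06 (1.77 to 2.40) and 1.92 (1.65 to 2.25). *Rag2* (ENSMUSG00000032864), 5753 bases away on the other strand from 101455063 to 101462874, had 0.346, 0.569 and 0.722 FPKM from 24, 46 and 55 fragments. Its folds were 1.64 (0.982 to 2.81), an interval that includes 1, and 2.08 (1.27 to 3.52). The 2 mutant libraries were close, with *Dspp*-/- at 0.932 of *Dspp*+/- for *Rag1* (0.826 to 1.05) and 1.27 times it for *Rag2* (0.842 to 1.92). *Rag1* was 5.25 times *Rag2* in FPKM in WT, 6.58 times in *Dspp*+/- and 4.83 times in *Dspp*-/-. *Iftap*, a gene whose body spans both, had 4.83, 5.46 and 5.25 FPKM. In GENCODE M21, where *Iftap* is named *B230118H07Rik*, its exons cover 1.21% of the exon length of *Rag1* and 6.08% of that of *Rag2*. *Traf6*, a signalling adaptor gene on the far side of *Rag1*, had 5.65, 5.66 and 6.55 FPKM.

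*Dntt* (ENSMUSG00000025014), for TdT, followed *Igll1* in part. On chromosome 19 from 41017714 to 41047964, it reached 0.819 FPKM for WT, 0.776 for *Dspp*+/- and 2.12 for *Dspp*-/-, on 38, 42 and 108 fragments. WT and *Dspp*+/- differed by less than counting error, with a fold of 0.947 (0.596 to 1.51), and *Dspp*-/- was above WT by 2.59-fold (1.77 to 3.85). It was above *Dspp*+/- by 2.73-fold (1.89 to 4.00). *Blnk*, an adaptor of pre-B cell receptor signalling 34736 bases away, had 1.13, 2.55 and 2.48 FPKM, so it was higher in both mutant libraries.

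*Lef1* (ENSMUSG00000027985) had the lowest mean FPKM of the genes with more than 3 fragments in each library. On chromosome 3 from 130904120 to 131018005, its level was 0.202 FPKM for WT, 0.328 for *Dspp*+/- and 0.363 for *Dspp*-/-, on 36, 68 and 71 fragments. The folds against WT were 1.62 (1.07 to 2.50) and 1.79 (1.19 to 2.76), and *Dspp*-/- was at 1.11 times *Dspp*+/- (0.783 to 1.57). An antisense gene, *Lef1os1*, overlaps 13.7% of its exon length in GENCODE M21 (as *Gm43352*), and had 0.0322 FPKM in WT and 0 in the others. Of the related factors and Wnt targets, 10 of 11 listed genes were in the table and 8 had a mean of at least 1 FPKM. All 8 were lower than WT in both mutant libraries, with medians of the log2 ratio of -0.73 and -0.33. Of the 13026 genes with such a mean, 5688 were lower than WT in *Dspp*+/- and 6416 in *Dspp*-/-. *Tcf7*, the relative of *Lef1* used by T cells, had 6.84, 3.38 and 5.64 FPKM, and *Ctnnb1*, for beta-catenin, had 143, 90.2 and 106 FPKM. *Lef1* thus went the other way from these 8 genes. Below the filter, where *Lef1* itself lies, *Nkd1* was lower in both mutant libraries, with 0.954, 0.715 and 0.483 FPKM. *Rnf43* was higher in both, with 0.00753, 0.149 and 0.0891 FPKM, on 1 fragment in WT.

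Set side by side, the intervals of the fold in *Dspp*+/- against WT were above 1 for 3 of the 7 genes with a fold, below 1 for 2 and on both sides of 1 for 2. Of 20322 genes with more than 3 fragments in either library, 32.0% had an interval above 1 and 23.1% below. In *Dspp*-/- against WT it was above 1 for 6 of 7 and included 1 for *Vpreb1*. The background there was 27.9% above and 26.4% below. Between the mutant libraries, *Igll1*, *Vpreb1* and *Dntt* were higher in *Dspp*-/-, none was lower, and the background was 20.4% above and 26.9% below. On the log2 scale of FPKM + 1, which understates changes of low genes, 4 of the 8 genes passed the filter of a mean of at least 1 FPKM. These were *Vpreb1*, *Vpreb3*, *Rag1* and *Dntt*, of 13026 genes in all. *Dntt* passed only through its *Dspp*-/- value, since it was below 1 FPKM in the other libraries. Only *Vpreb3* was at least 2-fold above WT, in both comparisons, with log2 ratios of 1.13 and 1.29. The share of all genes this far above WT was 4.88% in *Dspp*+/- and 4.05% in *Dspp*-/-. None of the 4 was 2-fold below WT, against 2.86% and 1.37% of all genes, and none differed 2-fold between the mutant libraries, against 0.852% higher and 0.798% lower in *Dspp*-/-. Scaling without hemoglobin, immunoglobulin and muscle genes ended the *Dspp*+/- call of *Vpreb3*, and a pseudocount of 0.1 added calls for *Rag1* and *Vpreb1* in *Dspp*+/-.

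**Figure D2:**
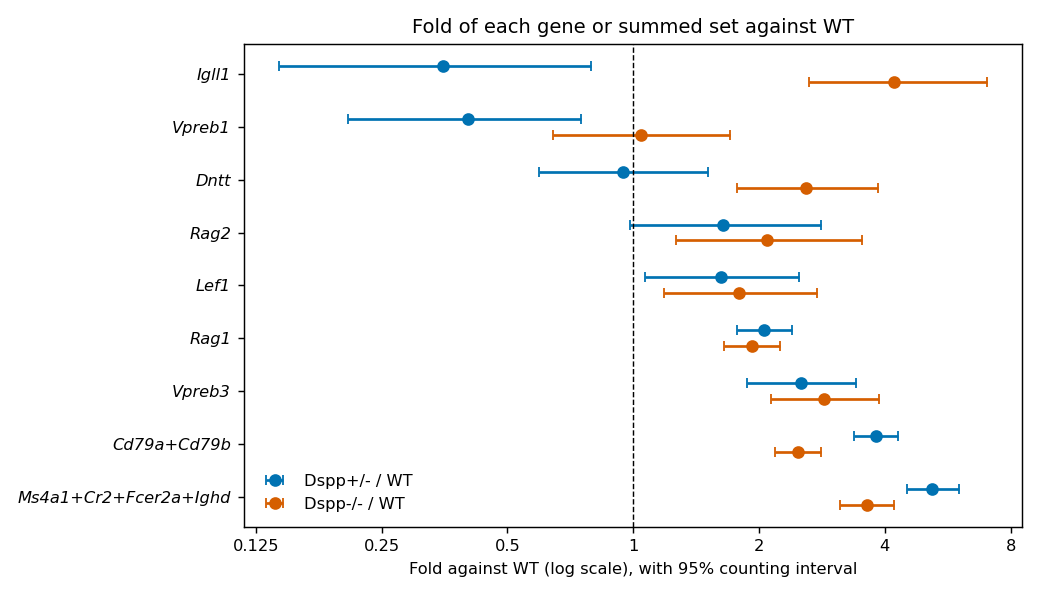
Fold against WT, on a log scale, for 7 of the genes and for summed genes of the whole B lineage (Cd79a, Cd79b) and of mature B cells (Ms4a1, Cr2, Fcer2a, Ighd), with 95% counting intervals. Blue is Dspp+/- and orange Dspp-/-. For Igll1 the 2 points lie on opposite sides of 1, at 0.351 and 4.22, while the B lineage sum is above 1 in both, at 3.81 and 2.48.

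*Cd79a* and *Cd79b* were higher in both mutant libraries, and more so in *Dspp*+/-. That is the reverse of the order of the mutant libraries for *Igll1*, *Vpreb1* and *Dntt*. Other B lineage genes did not all share that order, with *Ighm* and *Ebf1* higher in *Dspp*-/- than in *Dspp*+/-, as given below. *Cd79a* and *Cd79b*, for the signalling chains of the receptor, had 5.49 and 5.90 FPKM in WT, 21.6 and 21.8 in *Dspp*+/-, and 12.9 and 15.4 in *Dspp*-/-. Their summed fragments were 333, 1479 and 907, a fold against WT of 3.81 in *Dspp*+/- (3.38 to 4.30) and 2.48 in *Dspp*-/- (2.18 to 2.82). *Dspp*-/- was at 0.651 of *Dspp*+/- (0.598 to 0.707). Summed fragments of the mature B cell genes *Ms4a1*, *Cr2*, *Fcer2a* and *Ighd* were 5.20-fold above WT in *Dspp*+/- (4.52 to 6.01) and 3.62-fold in *Dspp*-/- (3.13 to 4.21).

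Against the sum of *Cd79a* and *Cd79b*, a denominator chosen after the data were seen, each of the 7 genes was lowest in *Dspp*+/-. So were 87.6% of the 16952 genes with more than 3 fragments in every library, since the denominator itself was high there, and the order is no result about these genes. *Igll1* had 66.1 fragments per 1000 fragments of *Cd79a* and *Cd79b* in WT (40.8 to 102), 6.09 in *Dspp*+/- (2.78 to 11.6) and 112 in *Dspp*-/- (90.7 to 138). *Vpreb1* had 102 (69.5 to 146), 10.8 (6.17 to 17.6) and 43.0 (30.4 to 59.2). For both chains the *Dspp*+/- interval lay below that of WT and that of *Dspp*-/-, as most genes did against each. *Dntt* had 114, 28.4 and 119 per 1000, so that WT and *Dspp*-/- differed by less than counting error. *Rag2* had 72.1, 31.1 and 60.6, *Rag1* 730, 395 and 566, and *Lef1* 108, 46.0 and 78.3. *Vpreb3* differed least, with 186, 123 and 215 per 1000. The *Dspp*+/- interval lay below that of *Dspp*-/- without overlap for all 7, and below that of WT for 6, with *Vpreb3* the exception. Of all genes, 61.6% and 86.9% did so with this denominator, so the lack of overlap is no result about these genes. In *Dspp*-/- it lay below WT for *Vpreb1* and overlapped WT for the other 6, where 79.7% of all genes lay below. The denominator also sets the direction for some genes. The next ratios are on the log2 scale of FPKM + 1, which understates changes of low genes such as *Lef1*. Relative to *Ebf1* and *Pax5*, that of *Vpreb3* in *Dspp*+/- turned from -0.63 to 0.29. In *Dspp*-/-, *Rag1* went from 0.51 above *Dspp*+/- to -0.14 and *Lef1* from 0.63 to -0.023. On that scale, being lowest in *Dspp*+/- did not hold for these 3 genes, by little for *Lef1*. Fragments were not set against *Ebf1* and *Pax5*.

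**Figure D3:**
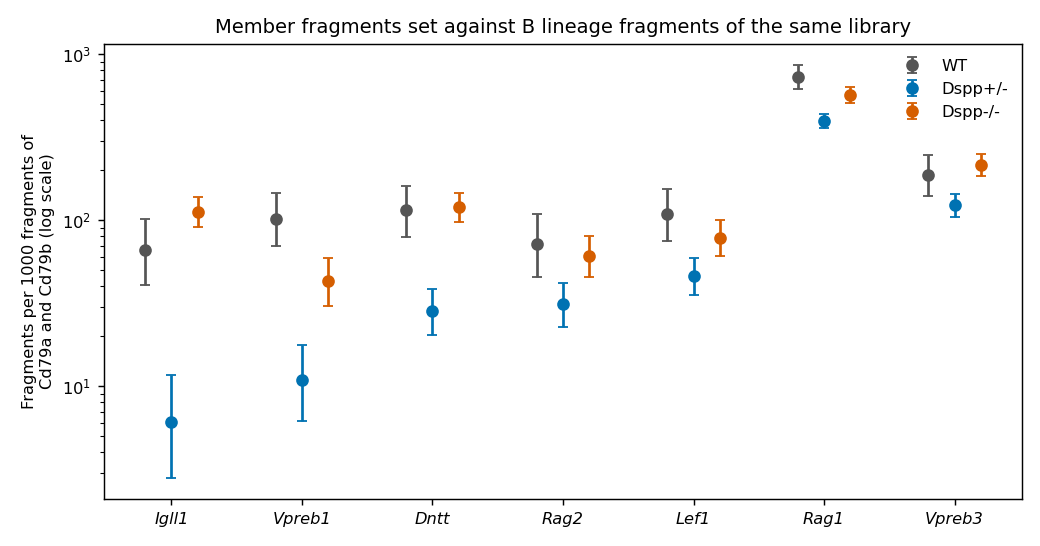
Fragments of each gene per 1000 fragments of Cd79a and Cd79b in the same library, on a log scale, with 95% exact binomial intervals. Grey is WT, blue Dspp+/- and orange Dspp-/-. Dspp+/- is lowest for all 7 genes, as for 87.6% of all genes, with Igll1 at 6.09 against 66.1 and 112 and Vpreb1 at 10.8 against 102 and 43.0.

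The other genes of the pathway were taken as lists. Of 14 partners of the pre-B cell receptor and its signalling, all had a mean of at least 1 FPKM. In *Dspp*+/- 7 were at least 2-fold above WT and none 2-fold below, with a median log2 ratio of 1.00, and in *Dspp*-/- 3 were above and none below, with a median of 0.81. For this and the lists below, the median of all genes compared was 0.058 and 0.0070. The share of all genes at least 2-fold above WT was 4.88% in *Dspp*+/- and 4.05% in *Dspp*-/-, and 2-fold below 2.86% and 1.37%. *Ighm*, for the mu heavy chain that pairs with the surrogate light chain, was the most abundant, with 193, 292 and 332 FPKM in WT, *Dspp*+/- and *Dspp*-/-. *Fyn* and *Pik3r1*, which many tissues use, were lower than WT in both, with 21.4, 12.9 and 14.6 FPKM for *Fyn* and 23.2, 20.9 and 21.7 for *Pik3r1*.

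Of 16 transcription factors of early B cell development, 15 passed the filter. In *Dspp*+/- 8 were at least 2-fold above WT and in *Dspp*-/- 6, with none 2-fold below in either, and medians of 1.03 and 0.73. *Spib*, for a relative of PU.1 in B cells, had 5.15, 18.6 and 13.1 FPKM. *Pax5*, which fixes B cell identity, had 1.38, 4.64 and 4.57 FPKM, and *Ebf1*, which acts just before it and is used by fat and stromal cells too, had 4.72, 6.71 and 7.48. *Sox4* had 22.1, 14.1 and 15.7 FPKM, *Tcf3* 17.3, 19.1 and 15.3, and *Spi1* 16.3, 17.8 and 15.7. *Pax5* was thus above WT to a like degree in both mutant libraries, in which *Igll1* differed 12.0-fold.

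Of 14 genes of interleukin 7 and other growth signals of B precursors, 12 passed. There were 2 at least 2-fold above WT in each mutant library, with *Socs1* 2-fold below in *Dspp*+/-, and medians of 0.39 and 0.29. *Cxcl12*, the stromal chemokine that holds precursors in marrow, had 41.3, 67.5 and 55.6 FPKM, and its receptor gene *Cxcr4* 9.21, 28.0 and 28.3. *Il7r*, for the interleukin 7 receptor, was named after its values were seen. WT showed 0.773 FPKM, *Dspp*+/- 2.72 and *Dspp*-/- 3.85, the same order as the summed surrogate chains, a sum that is mostly *Vpreb3*. It is not the order of *Igll1* and *Vpreb1*, which were lowest in *Dspp*+/-. Most of the list of *Il7r* went the other way between the mutant libraries, with 4 of the 12 higher in *Dspp*-/- than in *Dspp*+/- and 8 lower. Of 14 genes that join the broken DNA ends or help RAG cut, all passed, 1 was 2-fold above WT in each mutant library and none below, with medians of 0.090 and 0.24. That gene was *Hmgb2*, for a DNA-bending protein that dividing cells also use, with 6.60, 27.7 and 28.9 FPKM. *Xrcc5* and *Xrcc6*, for the Ku proteins, had 5.81, 4.85 and 7.00 FPKM and 3.38, 6.73 and 4.34 FPKM. The median of these genes, which most cells express, was thus near WT, while *Xrcc6* in *Dspp*+/- was 1.99-fold above it.

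Of 8 surface and other genes of B precursors, 7 passed and all 7 were above WT in both mutant libraries, with medians of 0.78 and 1.02. Of the 13026 genes compared, 7337 were above WT in *Dspp*+/- and 6609 in *Dspp*-/-. *Cd24a*, which red cell and neutrophil precursors also carry, had 51.4, 137 and 145 FPKM, and *Cd93*, also on endothelium, had 21.8, 23.1 and 26.7. Of 11 mature B cell genes 7 passed, with 5 and 3 at least 2-fold above WT and medians of 1.32 and 0.94. *Ighd*, for the delta heavy chain of mature B cells, had 1.77, 13.6 and 6.43 FPKM. *Cd37*, for a membrane protein of B cells, had 3.32, 9.76 and 7.87. Of 7 plasma cell genes 4 passed, with 2 above and 2 below WT in each library and medians of -0.20 and -0.15. *Jchain*, for the joining chain of secreted antibody, had 15.4, 28.4 and 26.0 FPKM, and *Xbp1* had 39.7, 42.2 and 41.0. *Sdc1*, with 23.6, 7.79 and 12.5 FPKM, was more than 2-fold below WT in *Dspp*+/-. *Prdm1* had 3.47, 2.18 and 2.51 FPKM. *Derl3*, 47116 bases from *Vpreb3*, had 0.421, 0.892 and 0.293.

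T cell precursors also use *Rag1*, *Rag2*, *Dntt* and *Lef1*, so T cell genes were read beside them. Of 14 listed genes 13 were in the table and 2 passed, *Tcf7* and *Cd4*, neither of which is limited to T cells. Summed FPKM of the 13 was 10.5 for WT, 10.5 for *Dspp*+/- and 11.2 for *Dspp*-/-, of which *Tcf7* made up the most in WT. Without *Tcf7* and *Cd4* the other 11 genes summed to 1.93, 4.72 and 3.83 FPKM, and 9 of them were above WT in each mutant library. The receptor and co-receptor chains were low in every library. *Cd3e* had 0.0242, 0.311 and 0.0661 FPKM, *Cd3d* 0.218, 0.210 and 0.223, *Cd3g* 0.0151, 0.0648 and 0.0412, *Cd8a* 0.0543, 0.221 and 0.358, and *Cd8b1* 0, 0.343 and 0.242. Between the mutant libraries, 7 of the 11 were higher in *Dspp*+/- and 4 in *Dspp*-/-. The part of T cell transcripts in the values of *Rag1*, *Rag2*, *Dntt* and *Lef1* was not tested.

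**Figure D4:**
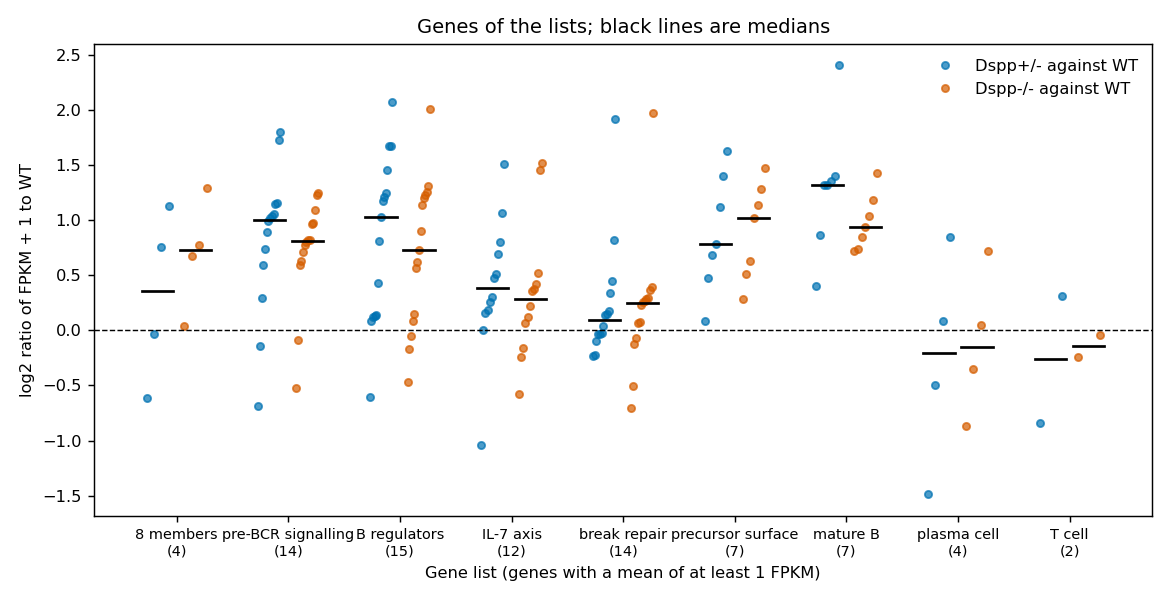
The log2 ratio of FPKM + 1 to WT for each gene with a mean of at least 1 FPKM in 9 lists, Dspp+/- in blue and Dspp-/- in orange, with the number of genes in brackets and medians as black lines. Pre-B cell receptor signalling (medians 1.00 and 0.81) and mature B cell genes (1.32 and 0.94) sit higher in Dspp+/-, and the 4 filtered members (0.36 and 0.72) sit higher in Dspp-/-.

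Genes whose pattern over the 3 libraries was most like that of the surrogate chains were found by distance. The summed FPKM of *Vpreb1*, *Vpreb2*, *Vpreb3* and *Igll1* was 5.47 for WT, 9.77 for *Dspp*+/- and 13.8 for *Dspp*-/-, with log2 ratios to WT of 0.74 and 1.19. *Vpreb3* makes up most of this sum. The 5 nearest genes were *Clec4a2*, *Gm1943*, *Mgst1*, *Jaml* and *Slco4c1*, at distances from 0.036 to 0.077 on the log2 scale. The measure rests on 3 libraries, and many genes lie near any such point.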

How the data were processed

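RNA of pooled mandibular condyles was measured in 3 libraries, 1 per genotype. The labels describe poly(A) selection and paired reads of 150 bases. Whether counting used strand is not given in the sources used here, so reads of overlapping genes on opposite strands may not be told apart. The authors deposited 1 table with a value per gene and library, read here as FPKM from the values themselves because its header names no unit. The submitters' processing notes name FastQC 0.11.5, HISAT2 2.1.0, StringTie 1.3.3b, DESeq 1.28.0 and the build hg38, a human build, with no roles, although the identifiers and positions are of mouse. No gene is at 0 in all 3 libraries, and 589 genes have their GENCODE M21 (GRCm38) start and end.

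Fragments were recovered from FPKM and merged exon length in GENCODE M21 for 26652 genes. At counts below 100, between 98.8% and 98.9% of genes came out whole within 0.1 in each library. Recovery was also run on simulated data built with the same gene lengths, which cannot test whether those lengths match the authors'. Folds and 95% Clopper-Pearson intervals use fragments, with a floor of 3. Calls use log2(FPKM + 1), a mean of at least 1 FPKM and a 2-fold threshold. No test was possible. Named genes are the 8 genes, the 4 most abundant of a list or those next to a member, genes within 50000 bases, the 5 nearest patterns, cell type markers, and those said to be named after values were seen. The genes and lists were chosen with earlier results of these data known. The 11 processing alternatives are given in the closing section. Ptcra and Sp5 of the lists were not analysed here, and some listed genes are not reported here, for which Cd79a and Cd79b alone served as the B lineage denominator. Analyses ran in Python 3.11.15 with scipy 1.17.1, Biopython 1.88, matplotlib 3.10.9, pandas 2.3.3 and numpy 2.4.6.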

Additional observations from a re-analysis of the deposited data

Results flagged for a closer look

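*Igll1* is listed because its library in *Dspp*+/- lay below WT, with a fold of 0.351, while that in *Dspp*-/- lay above, with a fold of 4.22, each by more than counting error. The difference was not tested, since each genotype is 1 library, and it rests on 9 fragments in *Dspp*+/-.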

How the results depend on the processing

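The directions of *Igll1*, *Vpreb3*, *Rag1*, *Rag2*, *Dntt* and *Lef1* against WT held under the 6 alternatives that touch them. The scalings shifted log2 ratios to WT by -0.19 to 0.028 in *Dspp*+/- and by -0.17 to 0.080 in *Dspp*-/-. Neither these shifts nor a pseudocount could turn the directions of those 6 genes, so that they held is no support for them. The direction of *Vpreb1* in *Dspp*-/- changed sign under 1 alternative, reaching -0.065. The log2 ratio of *Igll1* ranged from -1.13 to -0.088 in *Dspp*+/- and from 0.37 to 1.88 in *Dspp*-/-, and moved most with the pseudocount. A pseudocount cannot change the sign of a ratio, and the scalings shifted *Dspp*-/- over *Dspp*+/- by at most 0.052 on the log2 scale. The log2 ratios of *Igll1*, *Vpreb1* and *Dntt* between the mutant libraries were 1.41, 0.65 and 0.81. These alternatives could therefore not change their direction, and that it held is no support for it. *Vpreb2* had at most 1 fragment in a library, and *Igll1* in *Dspp*+/- had 9. No paired analysis was possible because each genotype has 1 library.

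The numbers of the 8 genes called moved as follows, from 1 higher and 0 lower in *Dspp*+/-, 1 higher in *Dspp*-/- and 0 between the mutant libraries. A pseudocount of 0.1 gave 2 higher and 1 lower in *Dspp*+/-, 2 higher in *Dspp*-/- and 2 between the mutant libraries. A pseudocount of 5 and a 4-fold threshold each gave 0 higher in both mutant libraries. No filter gave 2 higher in *Dspp*-/- and 1 between the mutant libraries. A 1.5-fold threshold gave 2 higher and 1 lower in *Dspp*+/-, 3 higher in *Dspp*-/- and 2 between the mutant libraries. Leaving hemoglobin, immunoglobulin and muscle genes out of the scaling gave 0 higher in *Dspp*+/-. With a mean of at least 5 FPKM only *Vpreb3* was left, so the medians of the genes that passed became 1.13 and 1.29.

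Over all genes, given as *Dspp*+/- against WT, then *Dspp*-/- against WT, then *Dspp*-/- against *Dspp*+/-, each higher and lower, the main numbers were 636 and 373, 527 and 179, and 111 and 104. A pseudocount of 0.1 gave 971 and 605, 836 and 363, and 223 and 214. A pseudocount of 5 gave 185 and 156, 136 and 45, and 36 and 36. The 1.5-fold threshold gave 1501 and 1166, 1152 and 1070, and 441 and 563, and the 4-fold threshold 124 and 24, 103 and 6, and 15 and 13. A mean of at least 5 FPKM gave 281 higher, 228 and 110, and 57 and 52. No filter gave 172 and 170 between the mutant libraries. The scaling that left out hemoglobin, immunoglobulin and muscle genes turned the balance in *Dspp*+/-, with 488 higher and 592 lower, gave 436 higher and 336 lower for *Dspp*-/-, and shifted all log2 ratios by -0.19 and -0.17. These numbers follow in part from the construction, since a larger pseudocount or threshold leaves fewer genes past it. The cause of the other moves was not tested.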

Other observations

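Genes of dividing cells were higher in both mutant libraries, also where *Igll1* and *Vpreb1* were low. Of 12 cell division genes all passed the filter, and 10 were at least 2-fold above WT in *Dspp*+/- and 9 in *Dspp*-/-, with medians of the log2 ratio of 1.34 and 1.13. Of all genes compared, 4.88% and 4.05% were this far above WT. *Mki67*, the proliferation marker, was at 4.34 FPKM for WT, 26.7 for *Dspp*+/- and 30.5 for *Dspp*-/-. *Pcna*, the replication clamp gene, had 14.9, 29.6 and 26.8 FPKM. Which cells these transcripts came from was not measured.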
